A study of Mus musculus with 12 samples.

Results

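The glycolysis and hypoxia genes described here are a module of 32 genes chosen by name, 15 of glucose uptake and glycolysis, 3 that set the fate of pyruvate, 3 of oxygen sensing, 3 that act at mitochondria or on lipid droplets, 6 secreted or matrix-related genes and 2 stress genes. All 32 were among the 27457 gene symbols of the count table. Transcripts were counted in 5′ single-cell libraries (10x Genomics) from 93126 cells of 48 subcutaneous tumors of MC38, a mouse colon carcinoma line of C57BL/6J (B6) origin. Each tumor was 1 hashtagged specimen of 1 of 12 pooled libraries, and the tumor was the replicate throughout. The study asked how the genetic background of the host alters the tumor's response to an antibody against PD-1 (aPD1), an inhibitory receptor of T cells.

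All hosts were female, 8 to 12 weeks old when MC38 cells were injected. When tumors measured 75 to 110 mm3, a single intraperitoneal dose of 200 µg of isotype control antibody (2A3) or of aPD1 (29F.1A12) was given, and tumors were taken 48 h later, frozen, and sorted to 90% CD45+ and 10% CD45- cells. Responder hosts were F1 animals of C57BL/6J with CC001/UncJ, CC002/UncJ or CC075/UncJ (10 isotype and 10 aPD1 tumors). Non-responder hosts were F1 animals of C57BL/6J with CC036/UncJ, CC079/TauUncJ or CC080/TauUncJ (9 and 9). C57BL/6J and C57BL/6J × CC007/UncJ hosts (5 isotype and 5 aPD1 tumors) were placed in no class. CC strains are Collaborative Cross lines, inbred from several founder strains. The class of a strain came from the study's tumor growth data in other animals and not from the sample labels, so each class is 3 strains and not a random set of animals. Isotype and aPD1 tumors never shared a hashtag, so hashtag and treatment cannot be told apart, and 1 animal identifier stood on 2 CC080 tumors. Hashtag also ran largely with class. Responder tumors carried hashtag 301 or 302, except those of CC002 in pool 12, and non-responder tumors 303 or 304, except those of CC036 in pool 8. Class and hashtag can therefore hardly be told apart either.

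Glycolysis splits glucose into pyruvate in the cytosol and yields ATP without oxygen. When oxygen is low, HIF-1α is no longer hydroxylated by the prolyl hydroxylases, escapes destruction by the VHL ubiquitin ligase, pairs with ARNT and binds DNA at hypoxia response elements built around a short core motif. Its targets include most glycolytic enzymes, the glucose transporter GLUT1 and VEGF-A, and in solid tumors macrophages far from vessels are known for this program.

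Promoter windows of 250 bases before to 50 bases after the start site, from RefSeq on GRCm38.p6, were found for 30 of the 32 genes (Ndrg1 and Ero1l were not matched). The 2 forms of the core, ACGTG and GCGTG, were searched on both strands. The string ACGTG stood in a window of 23 of 30 members (76.7%), against 21.8% of 27025 genes, and GCGTG in 20 of 30 (66.7%), against 35.2%. At least 1 of the 2 stood in 28 of 30 members (93.3%), against 46.7% of all genes. Counted by window, it stood in 35 of 42 member windows (83.3%) and in 43.8% of 32851. The member windows were also richer in G and C (median 64.5%, against 52.7%) and in CG dinucleotides (median 22, against 7), and the part of this base composition in the shares was not tested. A match is a string of letters and not a known site.

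The 250 bases before the start site are given for 5 members on the strand of the gene, with ACGTG or GCGTG and their reverse complements in capitals. Slc2a1, Bnip3, Egln3 and Adm are shown because they stood far higher in 1 macrophage cluster than in the other macrophages, and Hif1a because it did not. The windows were chr4:119108495-119108744 (plus strand) for Slc2a1, chr7:138909507-138909756 (minus strand) for Bnip3, chr12:54203875-54204124 (minus strand) for Egln3, chr7:110627407-110627656 (plus strand) for Adm and chr12:73907617-73907866 (plus strand) for Hif1a.
Slc2a1: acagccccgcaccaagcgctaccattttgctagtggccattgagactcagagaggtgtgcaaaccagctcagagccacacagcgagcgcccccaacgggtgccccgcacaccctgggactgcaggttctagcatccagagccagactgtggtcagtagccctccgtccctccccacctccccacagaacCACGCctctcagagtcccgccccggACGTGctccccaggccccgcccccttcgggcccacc
Bnip3: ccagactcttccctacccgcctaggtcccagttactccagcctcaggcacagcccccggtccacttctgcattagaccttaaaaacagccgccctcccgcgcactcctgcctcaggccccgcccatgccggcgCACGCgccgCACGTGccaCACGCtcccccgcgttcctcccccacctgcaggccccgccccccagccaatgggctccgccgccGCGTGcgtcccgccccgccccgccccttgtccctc
Egln3: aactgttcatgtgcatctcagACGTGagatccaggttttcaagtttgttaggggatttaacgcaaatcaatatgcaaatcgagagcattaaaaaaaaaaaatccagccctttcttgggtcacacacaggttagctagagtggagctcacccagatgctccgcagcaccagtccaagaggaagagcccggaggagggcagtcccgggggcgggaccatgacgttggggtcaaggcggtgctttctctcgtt
Adm: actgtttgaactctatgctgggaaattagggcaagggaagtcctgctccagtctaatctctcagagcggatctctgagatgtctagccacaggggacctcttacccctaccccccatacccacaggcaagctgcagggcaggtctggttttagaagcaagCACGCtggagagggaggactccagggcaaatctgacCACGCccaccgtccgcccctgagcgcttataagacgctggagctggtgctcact
Hif1a: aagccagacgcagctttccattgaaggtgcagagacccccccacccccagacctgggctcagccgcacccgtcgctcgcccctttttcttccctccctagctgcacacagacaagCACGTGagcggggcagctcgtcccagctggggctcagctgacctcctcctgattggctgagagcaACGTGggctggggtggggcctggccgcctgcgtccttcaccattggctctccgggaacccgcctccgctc
With the start site at position 0, ACGTG began at -36 in Slc2a1 and at -229 in Egln3. Slc2a1 also held GCGTG, at -61 on the reverse strand. Bnip3 too held both strings, with ACGTG at -107 on the gene's strand overlapping the reverse match at -108 (a palindromic CACGTG). Adm held only GCGTG, in 2 copies on the reverse strand, at -90 and -54. Hif1a, which encodes the regulated subunit itself, held a CACGTG at -135 and ACGTG at -70, so the strings alone did not separate it from the other 4.

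The 93126 cells carried 27 cluster numbers from the authors' own clustering, and a median of 3333.5 unique molecular identifiers (UMIs, each marking 1 captured transcript) per cell. Clusters 2, 4, 5, 9, 15, 17, 19, 21, 26 and 27 carried monocyte and macrophage markers (68059 cells, called macrophages, 30 to 2394 per tumor and 46554 to 11778425 UMIs per tumor). Clusters 1, 3, 7, 8, 10, 12, 13, 23 and 24 carried T and NK cell markers (12021 cells, 8 to 810 per tumor). No cluster was named as MC38, and no doublet caller was run. Of 87940 distinct cell barcodes, 4990 stood in more than 1 library. Levels are summed counts scaled to a total of 1000000 UMIs (CPM), and since genes differ in length and capture, they are compared between cells and tumors and not between genes.

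Cluster 27, with 4115 cells (6.05% of macrophages, 1.15% to 11.4% per tumor, median 5.46%), held the highest level of 21 of the 32 members among all 27 clusters, and of 28 among the 10 macrophage clusters. Against the other macrophages together, members were higher in it by a median of 2.54-fold, and 31 of 32 were higher, 26 more than 2-fold and 10 more than 5-fold. Over the 7899 genes of at least 10 CPM in macrophages, the median ratio was 0.830, with 26.4% higher, 2.80% more than 2-fold and 0.279% more than 5-fold, and 1.90% were highest in cluster 27. Of the members, 30 reached that level. Adm and P4ha2 did not, and both were among the 10 above 5-fold. All 10 macrophage markers reached 100 CPM in cluster 27, and its leading genes were Gpnmb, Ppbp, Hspb1, Hmox1, Mmp12, Egln3, Rhov, Bhlhe41, Cxcl3 and Mmp13. The authors clustered the same cells on variable genes whose names were not used here, and members may have been among them, so these ratios describe the cluster and carry no test.

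**Figure D1:**
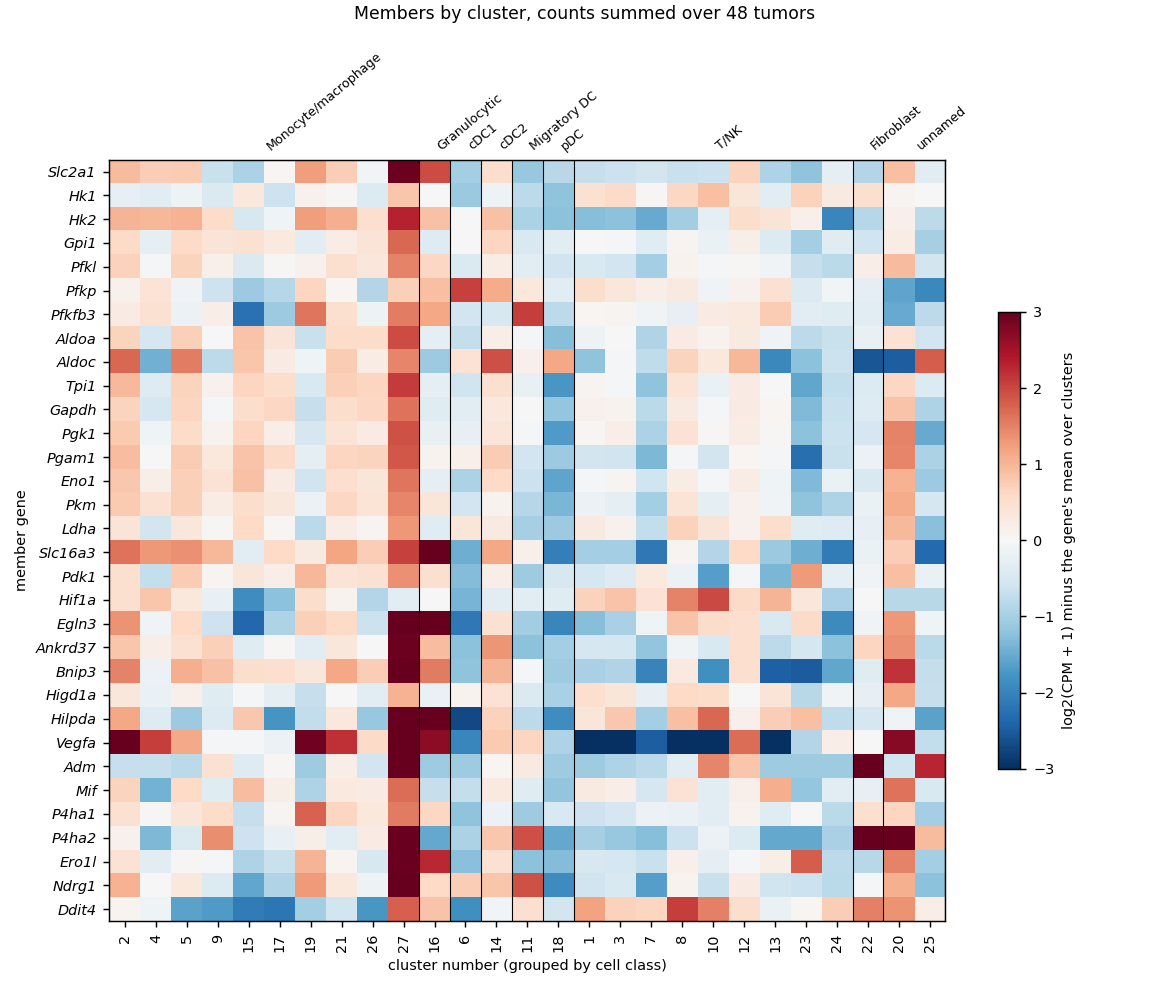
Level of each of the 32 members (rows) in each of the 27 clusters (columns, grouped by cell class), as log2(CPM + 1) of counts summed over 48 tumors minus the gene's mean over clusters, with colors clipped at 3 log2 units to either side. Most of the column of cluster 27 is above the mean, with Hif1a as an exception.

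The 15 genes of glucose uptake and glycolysis were all higher in cluster 27 than in the other macrophages, by 1.35-fold to 5.28-fold (median 2.22). Slc2a1, which encodes the glucose transporter GLUT1, led them at 405 CPM against 76.8 CPM (5.28-fold). Hk2, the hexokinase that traps glucose in the cell, stood at 185 CPM against 64.4 CPM (2.88-fold). Pgk1, which makes the first ATP of the pathway, stood at 997 CPM against 365 CPM (2.73-fold). Each of these 3 was higher in cluster 27 in 44 or 45 of the 45 tumors with a value for both. Aldoc, an aldolase best known from brain, showed the smallest ratio of the 15, 1.35-fold, and was higher in 35 of 45 tumors. Of the 3 pyruvate genes, Ldha, which turns pyruvate into lactate, was 2.15-fold higher (1420 against 660 CPM). Pdk1, whose product inhibits pyruvate dehydrogenase in the mitochondrion, was 1.93-fold higher, and Slc16a3, the lactate exporter MCT4, 1.80-fold higher.

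The genes outside glycolysis spread more widely. Egln3, a prolyl hydroxylase that marks HIF-1α for destruction, stood at 167 CPM in cluster 27 and at 15.1 CPM in the other macrophages (11.1-fold). Hif1a went the other way, at 233 CPM against 303 CPM (0.770-fold), and was higher in cluster 27 in 11 of 45 tumors. Bnip3, a mitophagy receptor, was 5.98-fold higher (709 against 119 CPM), and Hilpda, which inhibits lipid droplet breakdown, 9.08-fold higher (542 against 59.7 CPM). Both were higher in 45 of 45 tumors.

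Among secreted and matrix-related members, Adm, which encodes the vasodilator adrenomedullin, had the largest ratio, 76.0-fold (34.4 against 0.453 CPM). Cluster 27 held 83.3% of all macrophage Adm UMIs, with 6.17% of all macrophage UMIs. The angiogenic factor Vegfa was 3.38-fold higher (422 against 125 CPM). Ero1l, an oxidase of disulfide formation in the endoplasmic reticulum, was 7.87-fold higher (519 against 66.0 CPM), and P4ha2, a collagen prolyl hydroxylase subunit, 11.0-fold higher. Of the stress genes, Ndrg1 stood at 379 CPM against 59.4 CPM (6.37-fold) and the mTORC1 inhibitor Ddit4 was 6.12-fold higher.

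**Figure D2:**
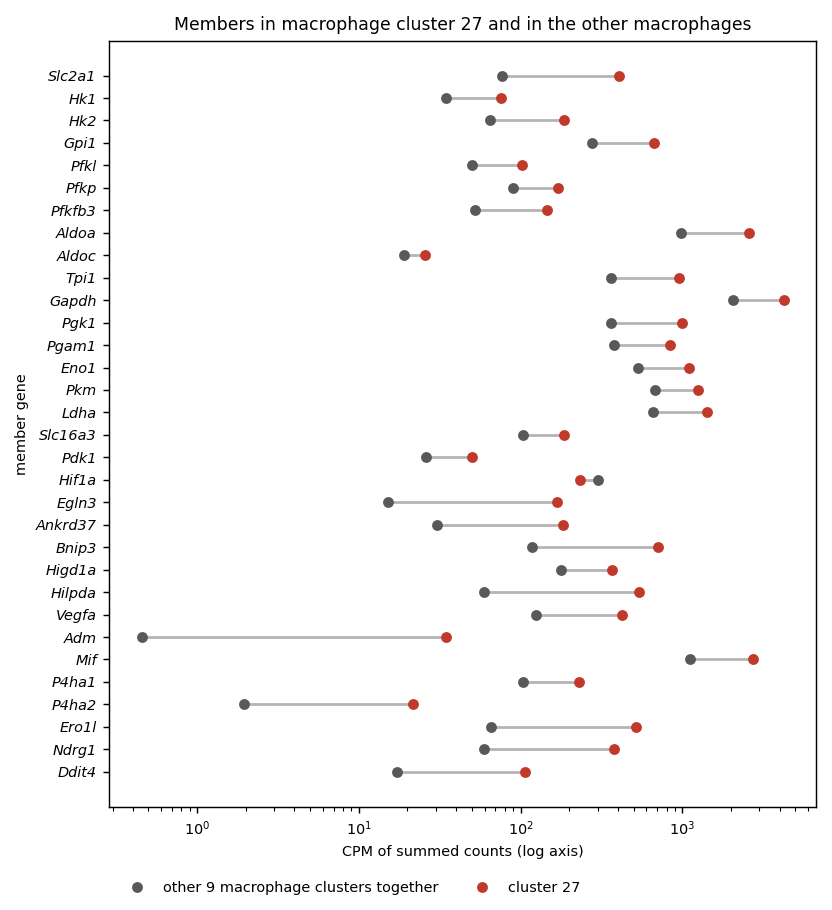
CPM of each member in macrophage cluster 27 (red) and in the other 9 macrophage clusters together (grey), on a log axis, from counts summed over 48 tumors. In 31 of 32 rows cluster 27 lies to the right, with Adm showing the widest gap (34.4 against 0.453 CPM) and Hif1a the reverse order.

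The remaining 11 members had their highest level elsewhere. The granulocytic cluster 16 was highest for Slc16a3 (418 CPM) and second to cluster 27 for Slc2a1, Egln3, Hilpda and Ero1l. Dendritic cells led for 3 glycolysis genes, with Pfkp, a phosphofructokinase, at 431 CPM in cDC1 (cluster 6), Pfkfb3, which makes the activator of that enzyme, at 213 CPM in migratory DC (cluster 11), and Aldoc at 35.9 CPM in cDC2 (cluster 14). Hif1a was highest in T/NK cluster 10 (1173 CPM) and next in cluster 8, which was led by Foxp3, the factor of regulatory T cells. Cluster 8 also led for Ddit4 (130 CPM), and cluster 10 for Hk1 (79.0 CPM). Fibroblasts (cluster 22) were highest for Adm (52.5 CPM) and P4ha2 (48.4 CPM), macrophage cluster 19 for P4ha1 (267 CPM) and the unnamed cluster 20 for Higd1a (395 CPM). Cluster 27 stood at 366 CPM for Higd1a and at 75.9 CPM for Hk1. With levels averaged over tumors, cluster 27 led for Higd1a and cluster 23 for Hk1. Cluster 20 was also second to cluster 27 for Pfkl, Gapdh, Pgk1, Pgam1, Eno1, Pkm, Ldha, Ankrd37, Bnip3 and Mif. Mif stood there at 2654 against 2736 CPM in cluster 27, Ldha at 1135 against 1420 CPM and Bnip3 at 259 against 709 CPM.

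Free RNA in droplets can carry macrophage transcripts into other cells. Summed T/NK cells held the macrophage genes Lyz2, Apoe, C1qa and Cd68 at 4.02% to 5.01% of their macrophage CPM. These shares were 42.2% to 47.0% in cluster 12 and 0.320% to 2.51% in the other T/NK clusters. In summed T/NK cells Vegfa stood at 9.63%, the lowest of the members. Hif1a (183%), Ddit4 (284%), Hk1 (153%) and Pfkp (129%) were above their macrophage levels in T/NK cells. Cluster 12, which also had hemoglobin genes among its leading genes, held Vegfa at 96.6 CPM, the highest of the T/NK clusters. That was 67.5% of the macrophage level of Vegfa, against 23.8% in cluster 24, 10.8% in cluster 23 and 0.715% to 3.17% in the rest.

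Per tumor, the members were tested on macrophage counts summed within each tumor, with edgeR's quasi-likelihood test over 11873 genes and Benjamini-Hochberg adjustment over all of them. In these sums, fewer cells of cluster 27 and less RNA per cell cannot be told apart. Over all 48 tumors, members varied from a coefficient of variation of 14.1% for P4ha1 and 15.3% for Higd1a to 66.8% for Ndrg1 and 87.4% for Adm. For Adm, counting error alone gave a median of 32.5%, since few Adm UMIs were caught, while for Ndrg1 it gave 5.12%.

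Between responder and non-responder strains, over both treatments, 1 of 32 members passed, against 6.56% of all genes (779, of which 487 were higher and 292 lower in responder strains, or 339 and 529 with library size alone as the scaling). That gene was Ndrg1 (chr15:66929318-66969640, minus strand, protein coding), an N-myc downstream regulated gene induced by hypoxia and other stress. In responder isotype tumors it ranged from 33.7 to 175 CPM (median 90.9), and in non-responder isotype tumors from 26.2 to 152 CPM (median 50.8). In aPD1 tumors it ranged from 43.7 to 267 CPM (median 124) in responder strains and from 22.3 to 116 CPM (median 36.2) in non-responder strains. The groups overlapped within each treatment, although 7 of 10 responder aPD1 tumors lay above every non-responder aPD1 tumor. Ndrg1 was higher in responder strains by 1.13 ± 0.25 on the log2 scale (SE, 20 against 18 tumors, edgeR adjusted p = 0.00396).

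Strain means were spread widely within each class. Ndrg1 averaged 186 ± 58.7 CPM in CC075 (SD, n = 6), 112 ± 32.7 in CC001 (n = 8) and 52.9 ± 22.2 in CC002 (n = 6) of the responder strains. The non-responder strains averaged 80.6 ± 43.8 CPM in CC036, 44.6 ± 26.4 in CC080 and 36.7 ± 6.23 in CC079 (n = 6 each). CC002, a responder strain, therefore lay below CC036, a non-responder strain, and the gap between them was smaller than the SD of CC036. With the strain as the unit, the responder mean was 63.2 CPM higher, and an exact two-sided permutation test over the 6 strain means gave p = 0.2, where 0.1 is the smallest that 3 against 3 strains allow. The edgeR call was lost without CC075 (0.72, adjusted p = 0.0852), without CC079 (0.92, adjusted p = 0.0630) and when counts were summed per strain and treatment (1.23, adjusted p = 0.260).

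**Figure D3:**
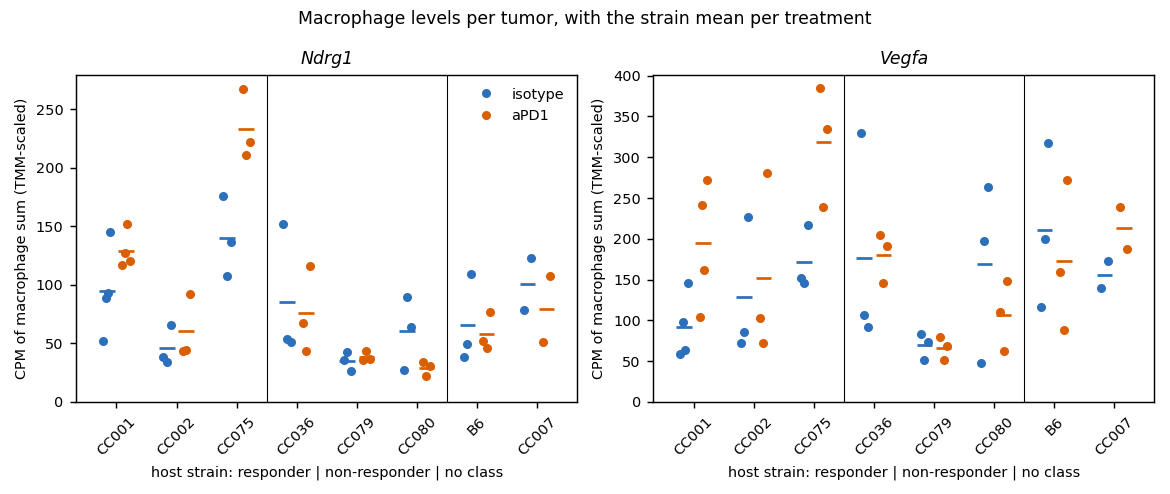
CPM of Ndrg1 (left) and Vegfa (right) in the macrophages of each tumor (points), by host strain, with isotype in blue, aPD1 in orange and a line at the mean of each strain and treatment. For Ndrg1 the 3 CC075 aPD1 tumors lie highest, between 211 and 267 CPM, and CC079 tumors stay between 26.2 and 43.7 CPM under both treatments.

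Among isotype tumors alone, 0 of 32 members passed edgeR (0.278% of all genes, 33), 0 had an unadjusted p under 0.05 (6.71% of all genes), and DESeq2 called 0. Ndrg1 differed by 0.72 ± 0.36 there (adjusted p = 0.754), and 6 of 32 members were higher in responder strains (median log2 difference -0.055). This direction turned in parts of the data, with 24 of 30 tested members higher in cluster 2 alone (median 0.064) and 22 of 30 in cluster 5 (0.085). The count was 17 of 30 in cluster 26 (0.037) and 17 of 32 when summed per strain and treatment (0.0058). It was 17 of 32 in pools 7 to 12 alone (0.017), against 4 of 32 in pools 1 to 6 alone (-0.12). Those sets of pools hold different strains, with CC075 and CC036 only in pools 8 to 11 and CC079 only in pools 1, 2 and 5. Pool and strain therefore cannot be told apart in any such split. Among aPD1 tumors 1 of 32 passed, again Ndrg1 (1.55 ± 0.36, edgeR adjusted p = 0.00694), against 6.44% of all genes. There, 28 of 32 members were higher in responder strains, with a median of 0.19, against 0.00 over all genes, with 19 of 32 higher without CC080 (median 0.049) and 15 of 32 in cluster 27 alone (median -0.012). The Ndrg1 call in aPD1 tumors was lost without CC075 (adjusted p = 0.104), without CC079 (0.0591), without CC080 (0.0696), in pools 1 to 6 alone (0.0623), in pools 7 to 12 alone (0.0933), in cluster 27 alone (0.450) and when summed per strain and treatment (0.373), where 17 of 13873 genes passed.

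A total of 8 members had an unadjusted p under 0.05 among aPD1 tumors, against 21.0% of all genes. Beside Ndrg1 these were Pfkfb3 (0.52), Aldoc (0.53), Bnip3 (0.47), Vegfa (0.90), the cytokine Mif (0.28), Hif1a (0.56) and Tpi1 (0.26), with edgeR adjusted p between 0.0750 and 0.221. With the pool as a block, 3 of 32 members passed among aPD1 tumors, against 11.8% of all genes in that fit, Ndrg1 (1.52, adjusted p = 0.000371), Pfkfb3 (0.60, adjusted p = 0.00634) and Vegfa (0.87, adjusted p = 0.0191). Summed per strain and treatment the adjusted p was 0.485 for Pfkfb3 and 0.520 for Vegfa, and over all alternatives it spanned 0.00132 to 0.775 and 0.0123 to 0.746, with 7 and 5 of 22 past the threshold. Over both treatments the block gave 2 of 32, against 8.93% of all genes, Ndrg1 (1.17, adjusted p = 0.000171) and Pfkfb3 (0.32, adjusted p = 0.0496).

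One tumor weighed on these counts. The CC036 aPD1 tumor of pool 10 was the highest of the 9 non-responder aPD1 tumors for 22 of 32 members, and cluster 27 made up 11.4% of its macrophages, against 2.37% to 8.97% in the other 8. Without it, 5 of 32 members passed among aPD1 tumors, against 7.23% of all genes, Aldoc, Bnip3 (0.67, adjusted p = 0.00603), Mif, Ndrg1 (1.84, adjusted p = 0.00154) and Pfkfb3 (0.70, adjusted p = 0.00814), and 2 of 32 over both treatments, against 6.71%, Mif and Ndrg1 (1.28, adjusted p = 0.000802). The tumor was singled out after its values were seen.

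Ndrg1 was also tested within parts of the macrophages. Without cluster 27 it stood higher in responder strains by 1.38 (adjusted p = 0.00145), and within cluster 27 alone by 0.58 (adjusted p = 0.159). Without cluster 27, Bnip3 passed beside Ndrg1 among aPD1 tumors (2 of 31 tested, against 6.74% of all genes). Markers of other cells were given the same test in the macrophage sums. Over both treatments 0 of 10 handling stress genes passed edgeR, and 0 of the 11 tested markers of MC38 cells, fibroblasts, red cells and granulocytes. The 10 handling stress genes together had 4462 to 9043 CPM with isotype and 5297 to 10423 CPM with aPD1 in responder strains, and the same sum was 5305 to 11193 CPM and 4691 to 9658 CPM in non-responder strains. Among aPD1 tumors the medians were 7971 CPM in responder and 6368 CPM in non-responder strains, among isotype tumors 6590 and 6868 CPM, and the part of these genes was not tested. Among aPD1 tumors 1 of 4 tested granulocyte markers, Csf3r, passed. The 6 granulocyte markers listed summed to 81.5 to 179 CPM in responder and 69.3 to 169 CPM in non-responder aPD1 tumors, and their part in the differences above was not tested.

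**Figure D4:**
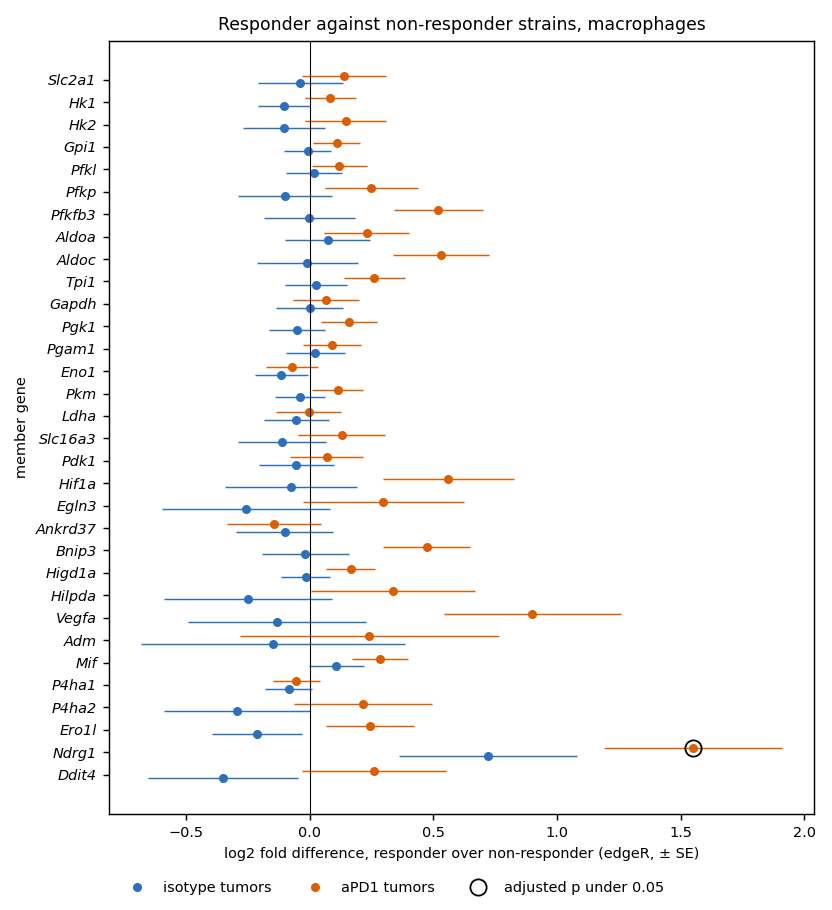
Log2 fold difference of each member between responder and non-responder strains in macrophages (edgeR, lines show the SE), for isotype tumors in blue (10 against 9) and aPD1 tumors in orange (10 against 9), with a ring where adjusted p was under 0.05. The 1 ring is Ndrg1 in aPD1 tumors at 1.55, and 28 of 32 orange points lie above 0, against 6 blue ones, a count that was 24, 22 and 17 of 30 in clusters 2, 5 and 26 alone.

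Treatment was compared within each class. In responder strains, 0 of 32 members passed edgeR between aPD1 and isotype tumors (0% of all genes), 3 had an unadjusted p under 0.05 (6.91% of all genes), and DESeq2 called 0 members. With the pool as a block, 0 members passed and 8 had an unadjusted p under 0.05 (1426 of 11873 genes), as did 8 of 31 without cluster 27 (869 of 11759 genes), whereas 0 did without CC001. Members were higher with aPD1 in 31 of 32 cases, by a median of 0.18 on the log2 scale, against 0.01 over all genes. That median was 0.10 without CC001 (29 of 32 higher), 0.29 in pools 1 to 6 alone (32 of 32), 0.065 in pools 7 to 12 alone (24 of 32) and 0.075 in cluster 26 alone (23 of 30). The summed level of the 10 handling stress genes had a median of 6590 CPM with isotype and 7971 CPM with aPD1 in responder strains, and of 6868 and 6368 CPM in non-responder strains, with overlapping tumors, and its part in the members' values was not tested. Vegfa ranged from 58.4 to 226 CPM (median 122) in responder isotype tumors and from 71.9 to 385 CPM (median 240) in responder aPD1 tumors. The groups overlapped, and 9 of 10 pairs from the same strain and pool were higher with aPD1 (0.83 ± 0.35, edgeR adjusted p = 0.697). Aldoc ranged from 8.68 to 31.2 CPM (median 16.6) and from 14.5 to 32.9 CPM (median 24.6), overlapping likewise, with 9 of 10 pairs higher (0.62 ± 0.19, adjusted p = 0.586). Bnip3 ranged from 104 to 213 CPM (median 148) and from 132 to 247 CPM (median 193), with 8 of 10 pairs higher (0.38 ± 0.17, adjusted p = 0.713).

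In non-responder strains, 0 of 32 members passed edgeR (0% of all genes), 0 had an unadjusted p under 0.05 (0.766% of all genes), and DESeq2 called 0. Here 9 of 32 members were higher with aPD1, with a median of -0.027, and this direction was not stable. It was 27 of 32 without CC080 (median 0.093), 24 of 32 summed per strain and treatment (0.045), 17 of 31 without cluster 27 (0.016), 23 of 30 in cluster 2 alone (0.074), 25 of 30 in cluster 5 alone (0.10), and 0 of 32 without the CC036 aPD1 tumor of pool 10 (-0.13). Vegfa ranged from 47.2 to 330 CPM (median 91.9) in isotype tumors and from 51.4 to 204 CPM (median 110) in aPD1 tumors, and 3 of 9 pairs were higher with aPD1. The difference between the classes in the effect of aPD1 (the interaction) passed for 0 of 32 members (edgeR, 0% of all genes), DESeq2 called 0, and 2 had an unadjusted p under 0.05 (5.73% of all genes). Those were Vegfa (1.03 ± 0.51) and Pfkfb3 (0.52 ± 0.26), both with an edgeR adjusted p of 0.868. With the pool as a block, 0 members passed and 4 had an unadjusted p under 0.05 (1358 of 11873 genes), and without the CC036 aPD1 tumor of pool 10 the latter count was 8 (801 of 11930 genes), whereas it was 0 without CC001, without CC075 or without CC080. The interaction was positive for 31 of 32 members (median 0.22), for 23 of 32 without CC080 (median 0.062), for 32 of 32 in pools 1 to 6 alone (median 0.35), for 22 of 32 in pools 7 to 12 alone (median 0.086) and for 32 of 32 without the CC036 aPD1 tumor of pool 10 (median 0.33).

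By strain, CC080 was at one end, with 0 of 32 members having a higher mean in aPD1 than in isotype tumors (3 and 3 tumors, median log2 ratio -0.32). CC001 was at the other end, with 29 of 32 higher (median 0.30). Between them were CC002 (23), CC079 (23), CC036 (22), CC075 (21), B6 (20) and CC007 (9). The CC080 count includes both tumors of the shared animal identifier, the aPD1 tumor of pool 4 and the isotype tumor of pool 3. The CC007 count rests on 2 aPD1 tumors, 1 of them with 30 macrophages. The CC036 count includes the aPD1 tumor of pool 10, which was the highest non-responder aPD1 tumor for 22 of 32 members. The Vegfa means were 91.4 CPM with isotype and 195 CPM with aPD1 in CC001, and 171 and 319 CPM in CC075. In CC080 they were 169 CPM with isotype and 107 CPM with aPD1. The counts by strain have no share over all genes beside them, so whether they are particular to the members was not tested. Cluster 27 made up 2.91% to 7.85% of macrophages in CC080 isotype tumors and 2.65% to 5.60% in CC080 aPD1 tumors. In CC001 its share was 7.02% to 10.6% with isotype and 2.75% to 11.4% with aPD1. The part of that share in the counts by strain was not tested. Over all strains together, with strain as a term, 0 of 32 members passed edgeR for treatment (0% of 13010 genes), 1 had an unadjusted p under 0.05 (Aldoc, 0.40, against 3.27% of all genes), and DESeq2 called 0.

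**Figure D5:**
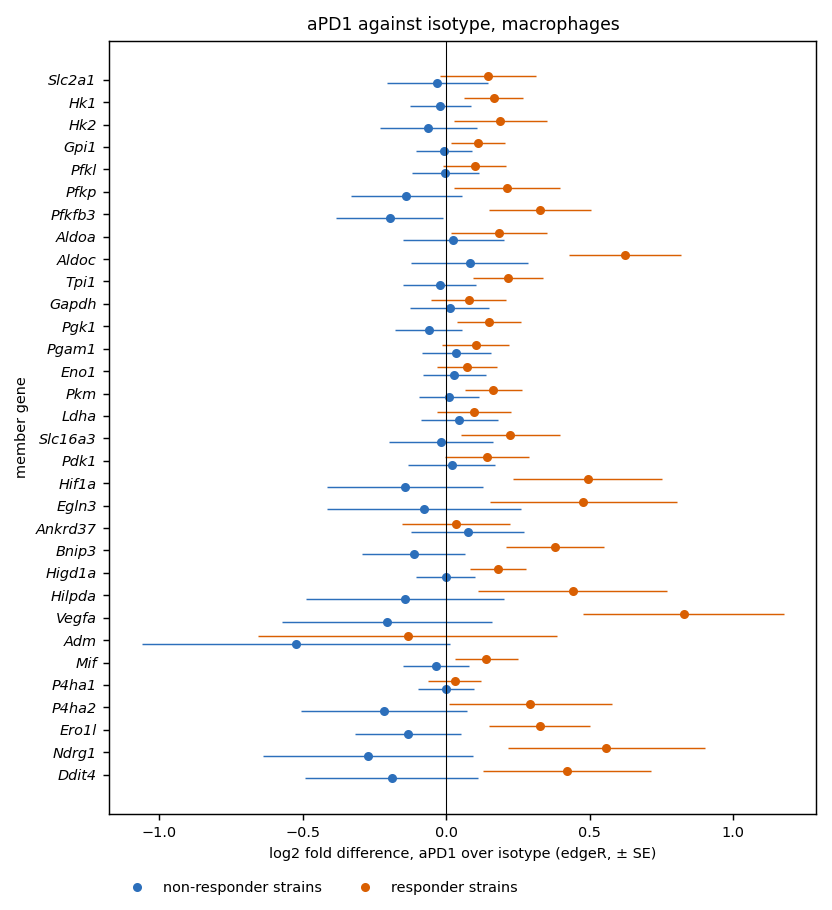
Log2 fold difference of each member between aPD1 and isotype tumors in macrophages (edgeR, lines show the SE), for non-responder strains in blue (9 against 9 tumors) and responder strains in orange (10 against 10). In responder strains 31 of 32 points lie above 0 and in non-responder strains 9, and no point passed the adjusted threshold.

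A test for any difference among the 8 host strains, with treatment as a term, called 11 of 32 members in the macrophages of 48 tumors, against 50.7% of all genes (6599 of 13010). With the pool as a block, 1 member remained past the threshold, Ndrg1, against 12.8% of all genes. Each strain stood in 2 to 4 of the 12 pools, so strain and pool cannot be fully told apart. Among the 11 called members the largest range between strain estimates was that of Ndrg1 (2.34 on the log2 scale, edgeR adjusted p = 1.27e-07), and the next that of Vegfa (1.82, adjusted p = 0.0113). Adm, not called, had a range of 1.91 (adjusted p = 0.0705).

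For glycolysis and lactate, the called members were Pfkfb3, Aldoc, Pfkp, Hk2, Aldoa, Slc16a3 and Pdk1, with ranges from 0.54 (Pdk1) to 1.14 (Aldoc) and adjusted p from 0.00185 to 0.0195. Without B6 and CC007 hosts Aldoc was no longer called and Ero1l, Gapdh and Ldha were (13 members in all, with 6625 of 12643 genes called). The orders of strains differed between these genes. CC079 was lowest for Hk2 (55.8 ± 5.03 CPM, SD, n = 6), Pfkp (71.1 ± 8.93) and Pfkfb3 (42.2 ± 5.21), whereas for Aldoa it was second (1221 ± 184), below CC001 (1331 ± 270, n = 8). Slc16a3 was highest in CC036 (142 ± 49.8) and CC075 (139 ± 17.6), and lowest in CC079 (92.9 ± 15.5), CC002 (94.7 ± 13.8). In each of these 3 pairs of neighbours the gap was smaller than the larger SD.

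Hif1a, the collagen prolyl hydroxylase subunit P4ha1 and Vegfa completed the 11. Hif1a averaged 480 ± 158 CPM in CC075 and 415 ± 126 in B6 at the upper end, and 209 ± 61.1 in CC079 and 251 ± 129 in CC001 at the lower end. Vegfa was highest in CC075 (245 ± 96.9 CPM) and lowest in CC079 (67.9 ± 13.7), the latter with all 6 tumors between 51.4 and 83.6 CPM. P4ha1 varied least of the 11, from 98.8 ± 8.91 CPM in CC079 to 134 ± 19.0 in CC036. In the same sums the handling stress genes Egr1, Hspa1a and Hspa1b (3 of 10 listed) also differed among strains, as did 11 of 16 tested markers of MC38 cells, fibroblasts, red cells and granulocytes, and their part in these differences was not tested. One CC007 aPD1 tumor had 30 macrophages and gave 0 UMIs of 6 members, Adm, Aldoc, Egln3, Hk1, P4ha2 and Pdk1.

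In T/NK cells, 28 of the 32 members had enough counts to be tested, all but Adm, P4ha2, Egln3 and Aldoc. Between responder and non-responder strains 0 of 28 passed edgeR (2.23% of 7219 genes, 161), 4 had an unadjusted p under 0.05 (14.5% of all genes), and DESeq2 called 0. Pdk1 ranged from 9.44 to 21.9 CPM (median 13.5) in responder isotype tumors and from 5.41 to 24.4 (median 12.5) in responder aPD1 tumors. In non-responder strains it ranged from 6.17 to 30.3 CPM (median 17.8) and from 8.74 to 33.1 (median 18.7). These groups overlapped (-0.53 ± 0.19, adjusted p = 0.145). Ndrg1, at 0.33 ± 0.14 (adjusted p = 0.235), had the sign seen in macrophages, with medians of 30.0 and 41.0 CPM in responder isotype and aPD1 tumors and of 25.1 and 26.2 CPM in non-responder ones. Ddit4 (-0.42, adjusted p = 0.321) and Vegfa (-0.54, adjusted p = 0.322) were the other 2. With the pool as a block Ddit4 passed (-0.59, adjusted p = 0.0290, with 4.17% of all genes called), and it also passed without CC001 (-0.83, adjusted p = 0.0244, with 2.68% of all genes called).

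The other T/NK comparisons called 0 members with edgeR and 0 with DESeq2. For class among isotype tumors the background was 0.429% of genes called and 8.42% with an unadjusted p under 0.05, and 0 members reached the latter. For class among aPD1 tumors it was 0.346% and 10.0%, and 2 members (Ndrg1 and Pdk1) had an unadjusted p under 0.05. For aPD1 against isotype in responder strains it was 0% and 2.98%, with 1 member (Ndrg1, 0.39) under that level. For the same contrast in non-responder strains it was 0.0139% and 3.67%, and for the interaction 0% and 3.41%, with 0 members in each. In cluster 3 alone, where 2 non-responder aPD1 tumors and 4 non-responder isotype tumors had at least 20 cells, 0 of 22 tested members passed. There 1 of 22 was higher with aPD1 in non-responder strains (median -0.54), 6 had an unadjusted p under 0.05 (413 of 4732 genes), and the interaction was positive for 21 of 22 (median 0.63), with 7 of the 22 members at an unadjusted p under 0.05 (339 of 4732 genes). Both non-responder aPD1 tumors kept in cluster 3 were of CC080, whereas the isotype tumors were of CC036 and CC080. Treatment and strain therefore cannot be fully told apart in these cluster 3 values, the interaction included. Both CC080 tumors with the shared animal identifier were among those kept, 1 with aPD1 and 1 with isotype. In the whole T/NK sums 20 of 28 were higher with aPD1 in non-responder strains (median 0.069), and the interaction was positive for 20 of 28 (median 0.048) and, in pools 7 to 12 alone, for 6 of 27 (median -0.16).

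Beyond the 32 members, 74 further genes of glycolysis and pyruvate metabolism (28), the HIF system (11) and other genes induced by low oxygen (35) were followed. In cluster 27, 32 of the 35 other low-oxygen genes were higher than in the other macrophages (median 2.61-fold), against 9 of 28 further glycolysis and pyruvate genes (median 0.838-fold) and 6 of 11 HIF system genes (median 1.01-fold). Among them were the metallothionein Mt2 (18.1-fold), the enolase Eno2 (10.5-fold), Hmox1, which breaks down heme (10.2-fold), and Egln1, the main prolyl hydroxylase (2.92-fold). Arnt, the partner of HIF-1α, was 1.04-fold.

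Between responder and non-responder strains, 2 of the 67 tested in macrophages passed edgeR, against 6.56% of all genes. The lactate transporter Slc16a1 was lower in responder strains (-0.52 ± 0.16, adjusted p = 0.0454) and Mpc1, a subunit of the mitochondrial pyruvate carrier, higher (0.22 ± 0.07, adjusted p = 0.0487). The count was 0 without CC001, without cluster 27, in cluster 2 or cluster 27 alone, in pools 1 to 6 alone, with no low-count filter, with tumors of at least 500 cells and when summed per strain, and 1 with library size alone, in cluster 26 alone and in pools 7 to 12 alone. It was 3 with DESeq2, with the pool as a block, in cluster 5 alone, without CC002, without CC079, without the CC036 aPD1 tumor of pool 10 and without the shared animal identifier, and 4 without CC036 and with early or late pools as a term. Over these and the other alternatives the adjusted p of Slc16a1 was 0.0130 to 0.510 and that of Mpc1 0.0292 to 0.456. In T/NK cells 2 of 39 passed, against 2.23% of all genes, with the chemokine receptor Cxcr4 lower (-1.03 ± 0.25, adjusted p = 0.0144) and Fam162a, a mitochondrial protein, higher (0.43 ± 0.12, adjusted p = 0.0334). This count was 1 without CC001, without CC002 and in either set of 6 pools alone, and 0 in cluster 3 or cluster 7 alone. It was 3 with the pool as a block, without CC079 and without the shared animal identifier, 4 with DESeq2, with library size alone, with early or late pools as a term, without CC075 and without cluster 12, and 5 without CC080. Without CC036 neither gene passed (Cxcr4 adjusted p = 0.359, Fam162a 0.0985), and the alternatives spanned an adjusted p of 0.00122 to 0.378 for Cxcr4 and 0.00113 to 0.984 for Fam162a. T/NK counts summed per strain were not fitted. The strain test called 31 of 68 in macrophages, against 50.7% of all genes, and 5 of 68 with the pool as a block, against 12.8%. Without the block, the smallest adjusted p were those of Eno2 (range 5.79, adjusted p = 3.09e-14), the lysyl hydroxylase Plod2 (3.12, adjusted p = 3.00e-08), the carbonic anhydrase Car9 (1.42, adjusted p = 4.17e-08), Slc16a1, Nampt and the histone demethylase Kdm3a.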

How the data were processed

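The authors aligned reads to GRCm38 with Cell Ranger, assigned hashtags and filtered and clustered cells with Seurat 5.0.1, and deposited raw UMI counts per gene and cell together with each cell's library, strain, treatment, hashtag and cluster. The deposited counts were used as they stood: all 150064855 entries were whole numbers.

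Clusters were named from marker lists where at least 3 markers and 50% of a list reached 100 CPM. Counts were summed per tumor and cell class, with at least 20 cells of the class. Sums were scaled by TMM, filtered with filterByExpr and fitted with edgeR 4.0.16 (quasi-likelihood, R 4.3.3, limma 3.58.1) as class by treatment, or as strain plus treatment over 48 tumors. The threshold was an adjusted p of 0.05. SEs were derived from the F statistics. The fits were tested on simulated data that held no strain or pool effect. That test cannot show the error rate of the class calls where tumors of the same strain or pool are alike.

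The members, gene lists and tests were chosen with earlier results of these data known. Named were the members past the threshold in any comparison (the 10 of smallest adjusted p), 10 preset members (Slc2a1, Hk2, Ldha, Pgk1, Hif1a, Vegfa, Bnip3, Egln3, Adm and Ndrg1), and up to 6 further pathway genes per comparison. Other members named beside them, and those at an unadjusted p under 0.05, were chosen after their values were seen.

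Alternatives were DESeq2 1.42.0, library size alone, no filter, the pool as a block, early or late pools as a term, tumors of at least 500 cells, single clusters, sums per strain, each strain left out, and both tumors of the shared animal identifier left out. Sums per strain were fitted in macrophages only, so the T/NK calls have no such check. Early means pools 1 to 6 and late pools 7 to 12, by pool number alone, since the labels give no dates. Pools 1 to 6 lack CC075 and CC036, and pools 7 to 12 lack CC079. Leaving out or keeping only cluster 27, leaving out T/NK cluster 12, pools 1 to 6 or 7 to 12 alone, the permutation over strain means and leaving out 1 CC036 tumor were chosen after seeing the data. The pool is a shared library by the labels and pairs isotype with aPD1 tumors. Deviations of such pairs from their group means correlated with a median r of 0.519 over 7912 genes (19 pairs, -0.122 to 0.787). The median was 0.324 for the same strain in other pools, 0.202 for another strain in the same pool and -0.0994 for tumors sharing neither.

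Words of 90 bases, standing for a read, were in part shared with other genes of the count table. The shares were 21.2% of Eno1 (with Eno1b), 17.3% of Higd1a (with Gm47112), 14.2% of Bnip3 (with AC160336.1) and 13.7% of Gapdh (with Gm10358). They were 11.4% of Ankrd37 (with Lrp2bp), 4.74% of Pfkp (with Pitrm1) and 3.35% of Ndrg1 (with Gm17035). Larger shares with genes outside the table included 52.1% of Pgk1 (with Pgk1-rs7), 34.2% of Pgam1 (with Pgam1-ps2) and 28.4% of Mif (with C230062I16Rik). The words ran over whole transcripts and the libraries were 5′, so these shares leave the counts uncertain without measuring by how much. Aldoa stood on 2 gene identifiers. Nothing states that tumors of a strain came from separate litters or days, so p-values measure the spread between these tumors.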

Additional observations from a re-analysis of the deposited data

Results flagged for a closer look

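A single value far from the rest was sought in 48 tests, each of 1 member in 1 group of 9 or 10 tumors, and 8 found one. Chance gives about 1 in 20 for a single such test. These tests shared tumors, and 5 of the 8 values came from 1 tumor, so that rate cannot be set against 8 of 48. In macrophages of the 9 non-responder aPD1 tumors, 5 members were highest in the CC036 tumor of pool 10: Slc2a1 at 195 CPM (the nearest tumor at 102), Bnip3 at 281 (166), Egln3 at 74.0 (35.6), Ndrg1 at 116 (67.0) and Pfkfb3 at 94.8 (58.2). The tumor had the largest share of cluster 27 cells in its group, 11.4% of macrophages, and the part of that share in the 5 values was not tested. Ndrg1 reached 152 CPM in the CC036 isotype tumor of pool 8 (nearest 89.4), which had 154 Ndrg1 UMIs. Pfkfb3 reached 103 CPM in the CC075 aPD1 tumor of pool 10 (nearest 76.6), and Aldoc 31.2 CPM in the CC002 isotype tumor of pool 5 (nearest 19.1).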

How the results depend on the processing

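The number of members past the threshold between classes in macrophages was 1. It moved to 2 in cluster 2 (362 of 9450 genes called), cluster 26 (750 of 9882) or cluster 5 (351 of 8169) alone. It was also 2 with the pool as a replicate block (1060 of 11873) and without the CC036 aPD1 tumor of pool 10 (800 of 11930). It was 0 in cluster 27 alone (39 of 5371), in pools 1 to 6 alone (331 of 11752) and when summed per strain (42 of 13873). In pools 1 to 6 Ndrg1 had an edgeR adjusted p of 0.0549, against 0.0396 in pools 7 to 12. The count ranged from 0 to 2 with each strain left out (628 to 939 genes called). Among aPD1 tumors the count was 1 and moved to 2 in cluster 26 alone (724 of 9882 genes called) and without cluster 27 (793 of 11759). It was 3 in cluster 2 alone (728 of 9450), with early or late pools as a term (1165 of 11873) and with the pool block (1398 of 11873). It was 4 in cluster 5 alone (384 of 8169) and 5 without the CC036 tumor (863 of 11930). It was 0 in cluster 27 alone (17 of 5371), in pools 7 to 12 alone (70 of 12073) and when summed per strain (17 of 13873). Ndrg1 had an edgeR adjusted p of 0.0933 in pools 7 to 12 and of 0.0623 in pools 1 to 6. With each strain left out the count was 0 to 4 (324 to 941 genes called). Cluster 5 alone gave 1 among isotype tumors (23 of 8169 genes called), where the count was 0. The strain test gave 18 with DESeq2 (7497 of 12999 genes), 7 in cluster 27 alone (1201 of 7249) and 1 with the pool block (1671 of 13010), against 11 (6599 of 13010). In T/NK cells the count of 0 between classes became 1 with the pool block (301 of 7219 genes called) and 0 to 1 with each strain left out. The count of 0 among aPD1 tumors became 1 (Adm) with no filter (56 of 20912 genes called). The pool block changed no other count of members past the threshold. Of single values, the aPD1 effect in non-responder macrophages, below 0 for both genes, changed sign for Ndrg1 summed per strain (0.038), in cluster 5 alone (0.22) and without CC080 (0.014, the range over strains left out being -0.48 to 0.014), and for Vegfa summed per strain (0.19), in cluster 26 (0.23), cluster 5 (0.086) and cluster 27 (0.042) alone and without CC080 (0.061, range -0.47 to 0.061). Fam162a in T/NK cells changed sign in cluster 7 alone (-0.054). The cause was not tested. Library size alone gave 339 genes higher and 529 lower in responder strains, against 487 and 292 with TMM, and shifted the median of all genes to -0.05. The other 231 counts of members kept within 1.5 times the reported one. Many of these were 0 that stayed 0, in comparisons where 0 or few of all genes passed and the count could hardly move. Tumors with few macrophages or T/NK cells limit low genes such as Adm most.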
